A study of Mus musculus with 8 samples.

Results

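Genes tied to IRE1-dependent RNA decay, 10 in all and called the substrates here, were followed in pancreatic islets of the NOD/ShiLtJ strain, which develops autoimmune diabetes. They are Bloc1s1, Hgsnat, Scara3, Pdgfrb, Sparc, Col6a1, Galnt10, Ergic3, Pmp22 and Txnip. They were chosen by name, 9 as mRNAs that earlier reports give as decayed and Txnip as a gene tied to IRE1α through a microRNA, with earlier results of these data known. All 10 were present among the 14126 genes of the deposited table and passed the filter on low values. Bulk RNA sequencing had been done on islets of 7-week-old mice, with 4 mice in each of 2 groups. The libraries labelled WT came from mice with floxed Ern1 (IRE1αfl/fl), the gene for IRE1α. The libraries labelled KO came from mice whose genotype is given as IRE1αβ-/-, a loss of IRE1α in the insulin-secreting beta cells. Per the labels' protocols both groups were injected intraperitoneally with tamoxifen at 10 mg/ml, 2 times every 24 hours over 5 days in a row, to switch on the Cre recombinase. The promoter that drives Cre is not given in the sources used here. A beta cell deletion leaves the other cells of the islet, including alpha cells, duct cells, vessels and stroma, with their own IRE1α.

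IRE1α is a sensor in the membrane of the endoplasmic reticulum (ER) that becomes an RNase when unfolded proteins build up. Its best known act is to cut the Xbp1 mRNA at a pair of hairpins, which starts an unconventional splicing that yields the transcription factor XBP1s. It also cuts other mRNAs at similar hairpins, and the fragments are degraded, a process called regulated IRE1-dependent decay (RIDD). The question here was whether mRNAs reported as RIDD substrates were more abundant in islets labelled as lacking IRE1α from beta cells.

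The sequences that IRE1α recognises are short, and the textbook case is the pair of hairpins in Xbp1. The core searched was a 7-base loop CNGCAGN closed by at least 4 perfect base pairs, on the sense strand of the transcript (GENCODE M21, GRCm38). It was found at 2 places in Xbp1, with stems of 6 and 7 pairs, and in 2 of the 10 genes, Bloc1s1 and Scara3. They are shown 5′ to 3′ with 9 bases on each side, and the capitals mark the loop.
Xbp1, site 1: ctgctgagtCCGCAGCactcagact
Xbp1, site 2: tgtgcacctCTGCAGCaggtgcagg
Bloc1s1: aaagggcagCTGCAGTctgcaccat
Scara3: gcgggggccCTGCAGAggcccgcgc
The Xbp1 sites lie in the coding sequence at chr11:5524267-5524291 and chr11:5524293-5524317 on the plus strand. The Bloc1s1 site, with a stem of 4 pairs, lies in the coding sequence at chr10:128920002-128920026 on the minus strand. The Scara3 site, with a stem of 5 pairs, lies in the 5′ UTR at chr14:65953513-65953537 on the minus strand. Of 13243 genes searched in this way, 3.6% held such a hairpin. Among transcripts of similar length the share was 0.5% for Bloc1s1 and 3.5% for Scara3. The bare loop, without the stem, was present in all 10 genes and in 97.2% of all genes. The 8-base form CTGCAGCA, as in the second Xbp1 site, occurred once in Col6a1 and in 22.1% of all transcripts searched. A match is a description of letters and not a mapped cleavage site.

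Values are the authors' normalized counts, rounded to whole numbers, and fold changes are log2 differences of value + 1 with their standard error (limma-trend, n = 4 libraries per group). The table is filtered, its totals ran from 32024139 to 34858983 per library, and depth could be read from the spacing of low values in 4 libraries only, at 30988517 to 36504094 reads. Ern1 was higher in the libraries labelled KO, with 5549, 5164, 4622 and 4500 in WT libraries 1 to 4 against 7223, 7390, 6922 and 7216 in KO (log2 0.54 ± 0.08, adjusted p = 0.00234). Which exons are floxed is not given in the sources used here, so this value for the whole gene does not check the label. Libraries 1 and 2 stood apart from 3 and 4 in both groups, with all 12 immediate early genes higher in libraries 3 and 4 (median log2 3.94), and the labels record no batch. The cell markers also moved: 5 of 8 beta cell markers were lower in KO, where 9.81% of all genes were. Of the alpha markers 5 of 6 were higher, and of the delta and PP cell markers 5 of 5, where 11.1% of all genes were. In such bulk samples fewer cells of a type and less RNA per cell cannot be told apart.

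Of the 10 substrates, 1 was called higher in the libraries labelled KO, Scara3, and none was called lower at an adjusted p under 0.05. Of all genes tested, 11.1% were called higher and 9.81% lower, so the share of substrates called was close to the background. At an unadjusted p under 0.05, limma-trend gave 2 of the 10 as higher and 1 as lower, where 18.3% and 16.7% of all genes were, so these counts too were near the background. Fold changes were positive for 8 of the 10 genes and ran from log2 -0.30 for Hgsnat to 1.92 for Scara3. Their median was 0.37, or 0.23 for the 9 without Txnip, against -0.0008 over all genes. With the replicate number as a block, which treats the like-numbered libraries of the groups as pairs, Pdgfrb and Col6a1 were called higher beside Scara3, where 14.2% of all genes were. A fit with the split between libraries 1 and 2 and libraries 3 and 4 called 5 of the 10 higher (Scara3, Pdgfrb, Col6a1, Pmp22 and Txnip) and 1 lower (Hgsnat), where 17% and 14.9% of all genes were called. The authors' deposited table gave 5 of the 10 as higher (Scara3, Pdgfrb, Col6a1, Pmp22 and Txnip) and 0 as lower, where it gave 16.2% and 13.1% of all its genes.

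**Figure D1:**
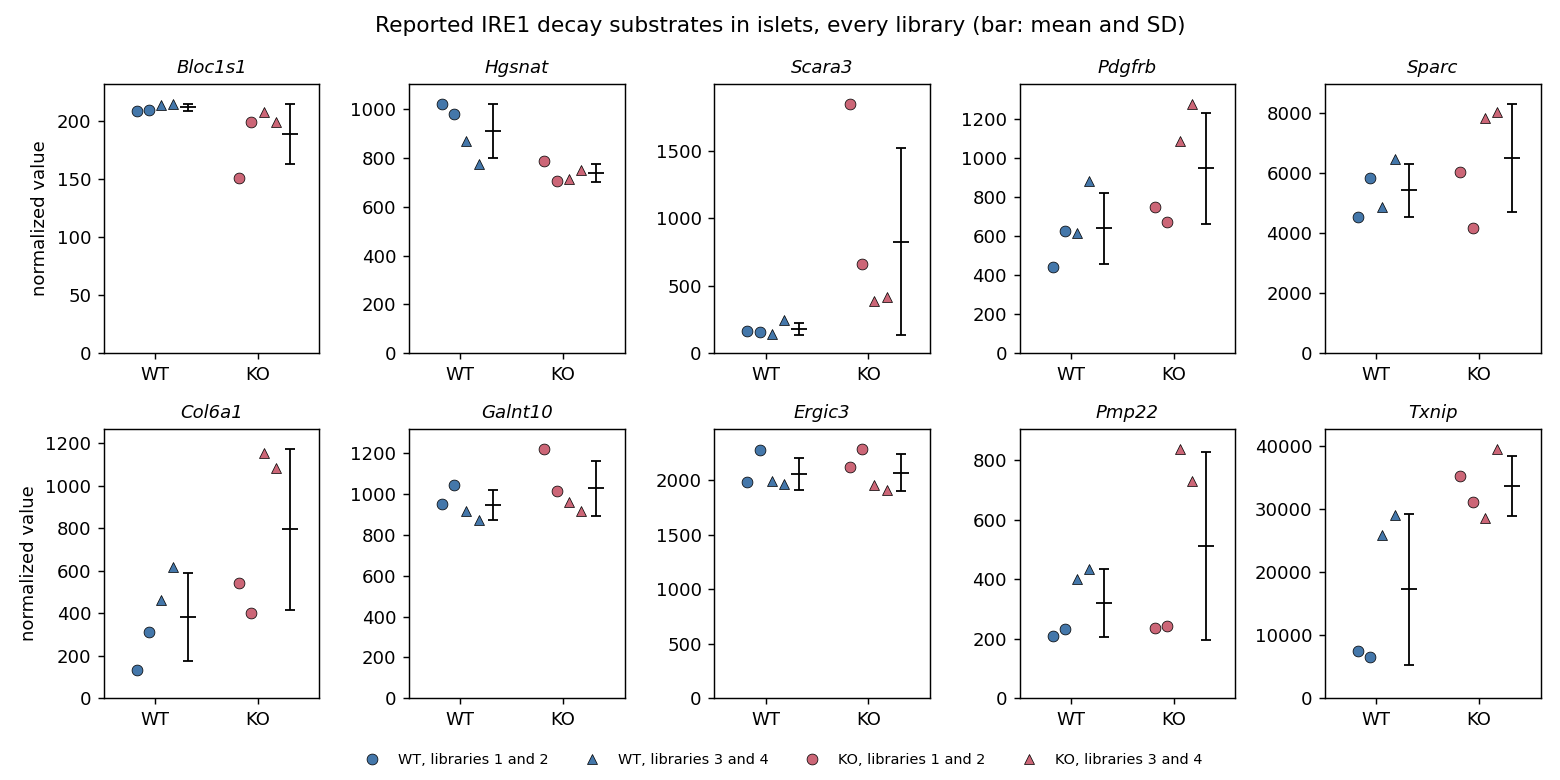
Normalized value (y axis, linear, from 0) of the 10 genes in each library, circles for libraries 1 and 2 and triangles for 3 and 4, with the mean and SD of 4 libraries at the right of each group. Scara3 is the only gene of the 10 with every KO value above every WT value, and Bloc1s1 the only one with every KO value below.

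Bloc1s1 encodes a subunit shared by the BLOC-1 and BORC complexes, which sort cargo to lysosome-related organelles and position lysosomes, and its mRNA is the substrate most often used to read RIDD. It lies at chr10:128917882-128924035 (minus strand, ENSMUSG00000090247). Its values were 209, 210, 214 and 215 in WT libraries 1 to 4 and 151, 199, 208 and 199 in KO. Every KO value was below every WT value, by 1 unit at the closest point (KO3 at 208 against WT1 at 209), and KO1 was the lowest. The difference was log2 -0.17 ± 0.13, with a 95% interval from -0.47 to 0.12, and did not pass the test (limma-trend, adjusted p = 0.379). That interval allows a rise of at most log2 0.12 on this scale. Complete separation downwards was seen in 12.3% of all genes. The gene that shares the locus on the same strand, Rdh5, overlaps Bloc1s1 and held 89, 83, 260 and 192 in WT against 81, 69, 182 and 104 in KO. How reads in the overlap were assigned is not given in the sources used here. None of the other 12 subunits of BLOC-1 and BORC passed the test (limma-trend), 0 of them had an unadjusted p under 0.05, and the authors' deposited table called 0. Bloc1s6 was at 651.5 ± 69.9 in WT and 704.8 ± 48.2 in KO, and Snapin at 592.2 ± 33.4 and 554.8 ± 41.6 (SD, n = 4).

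Hgsnat, Ergic3 and Galnt10 encode membrane enzymes or carriers of the lysosome and the early secretory pathway. Hgsnat (chr8:25944453-25976753, minus strand, ENSMUSG00000037260) acetylates heparan sulfate in the lysosomal membrane so that its breakdown can go on. It was at 1019, 980, 868 and 775 in WT and 785, 703, 714 and 750 in KO. The groups overlapped only at WT4 and KO1, and libraries 1 and 2 of WT were the highest. Its difference was log2 -0.30 ± 0.10, with an interval from -0.53 to -0.07, and missed the threshold (adjusted p = 0.0693). In libraries 1 and 2 alone it was -0.43 (limma-trend, adjusted p = 0.0375), where 10.9% of genes were called lower, and in 3 and 4 alone -0.16 (adjusted p = 0.321). The difference between those pairs of libraries was not past the threshold (interaction, adjusted p = 0.373). Without WT library 4, Hgsnat was called lower at -0.37 (adjusted p = 0.0219). Where 9.81% of all genes were called lower, 2 of 8 other genes of lysosomal heparan sulfate breakdown fell and 6 did not pass. Among them Idua, the iduronidase, was at 392 ± 28.4 in WT and 302.2 ± 31.7 in KO (SD, n = 4; limma-trend, adjusted p = 0.0372).

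Ergic3 (chr2:156008045-156018279, plus strand, ENSMUSG00000005881) is a membrane protein that cycles between the ER and the Golgi. Values were 1987, 2275, 1991 and 1965 in WT and 2123, 2287, 1952 and 1913 in KO. The groups covered nearly the same range, with library 2 the highest in both. The difference was log2 0.01 ± 0.09 with an interval from -0.18 to 0.20 (adjusted p = 0.956). Of 6 other genes of this compartment tested, 3 fell, where 9.81% of all genes were called lower. All 3 encode cargo receptors or cycling proteins of the ER exit route. Lman2 fell by 0.75, Lman1 by 0.70 and Surf4 by 0.51 on the log2 scale (limma-trend, adjusted p = 0.000519, 0.0027 and 0.00662). For each of these 3 every KO value was below every WT value, a separation seen in 12.3% of all genes.

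Galnt10 (chr11:57645442-57787514, plus strand, ENSMUSG00000020520) encodes one of the enzymes that start mucin-type O-glycosylation. It was at 950, 1043, 913 and 870 in WT and 1219, 1015, 957 and 915 in KO. KO1 was the highest and the other 7 libraries overlapped. The difference was log2 0.12 ± 0.11 (interval from -0.13 to 0.36, adjusted p = 0.489). Of 14 other GalNAc transferases measured, 3 rose, 2 fell and 9 did not pass, where 11.1% and 9.81% of all genes were called higher and lower. Galnt13 was at 389.2 ± 114.4 in WT and 1202.8 ± 295.8 in KO, and Galnt3 at 38 ± 7.79 and 96.2 ± 52.1. In the other direction, Galnt18 was at 814.8 ± 149.9 and 337.2 ± 29.4, and Galnt14 at 1527 ± 167.8 and 668 ± 42.4 (SD, n = 4).

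Scara3, a class A scavenger receptor family member induced by oxidative stress, rose in the libraries labelled KO and was the 1 substrate of the 10 to pass the test. It lies at chr14:65919394-65953935 (minus strand, ENSMUSG00000034463) and carries the hairpin in its 5′ UTR. The values were 167, 157, 146 and 246 in WT and 1848, 661, 386 and 414 in KO. Every KO value was above every WT value, a separation seen in 13.6% of all genes, and KO1 was far above the other KO libraries. The ratio of means was 4.62, and the fitted difference log2 1.92 ± 0.45 (interval from 0.90 to 2.94, adjusted p = 0.0175). Without KO1 the difference was 1.43 (limma-trend, adjusted p = 0.0085), and over all 8 ways of leaving out a library the adjusted p stayed between 0.0085 and 0.0462. The difference was 2.76 in libraries 1 and 2, where 12.3% of all genes were called higher, and 1.07 in libraries 3 and 4, where 11.3% were, and each was called (limma-trend, adjusted p = 0.00735 and 0.0191). The interaction between them did not pass (adjusted p = 0.179).

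Each of the 5 duct cell markers was highest in KO1, as Scara3 was, but they did not all follow it in the other libraries. Krt19, a keratin of duct cells, was at 46, 80, 47 and 76 in WT and 1673, 216, 106 and 54 in KO. Sox9, a duct cell transcription factor, was at 41, 35, 27 and 57 in WT and 293, 86, 71 and 75 in KO. The chloride channel gene Cftr was also highest in KO1, at 307 against 89 or less in every other library. The sum of the 5 duct markers ran from 5608 to 6525 in WT and from 11116 to 26983 in KO, with KO1 at the top. Most of it was Krt7 and Spp1, and Spp1 was at 1500, 1030, 951 and 1468 in WT and 19589, 6547, 9377 and 10277 in KO. None of the 5 was at 0 in any library. Of the 5, only Spp1, a secreted phosphoprotein, passed the test (limma-trend, log2 3.12 ± 0.31, adjusted p = 0.000337), where 11.1% of all genes were called higher. With the replicate block 3 of the 5 were called higher (14.2% of all genes), and the authors' deposited table called 4 higher (16.2%). Krt7, the other abundant one, was at 4534.2 ± 425.7 in WT and 4558 ± 403.9 in KO (SD, n = 4). With the mean level of these markers as a term, added after seeing the data, the Scara3 difference was 0.29 (limma-trend, adjusted p = 0.618) and 1.23% of all genes were called higher. That mean log2 level ran from 7.56 to 8.02 in WT and from 8.71 to 10.75 in KO, so the fit cannot separate the level from the label. With the stromal marker level as a term instead the Scara3 difference was 2.42 (limma-trend, adjusted p = 0.0607), and 3.56% of all genes were called higher. The part of duct cell RNA in the Scara3 result was not tested further. The class A relative Colec12, the only other member of the family measured, was at 60.2 ± 27.9 in WT and 140.2 ± 58.7 in KO (SD, n = 4; limma-trend, adjusted p = 0.0742, or 0.0122 with the replicate block).

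**Figure D2:**
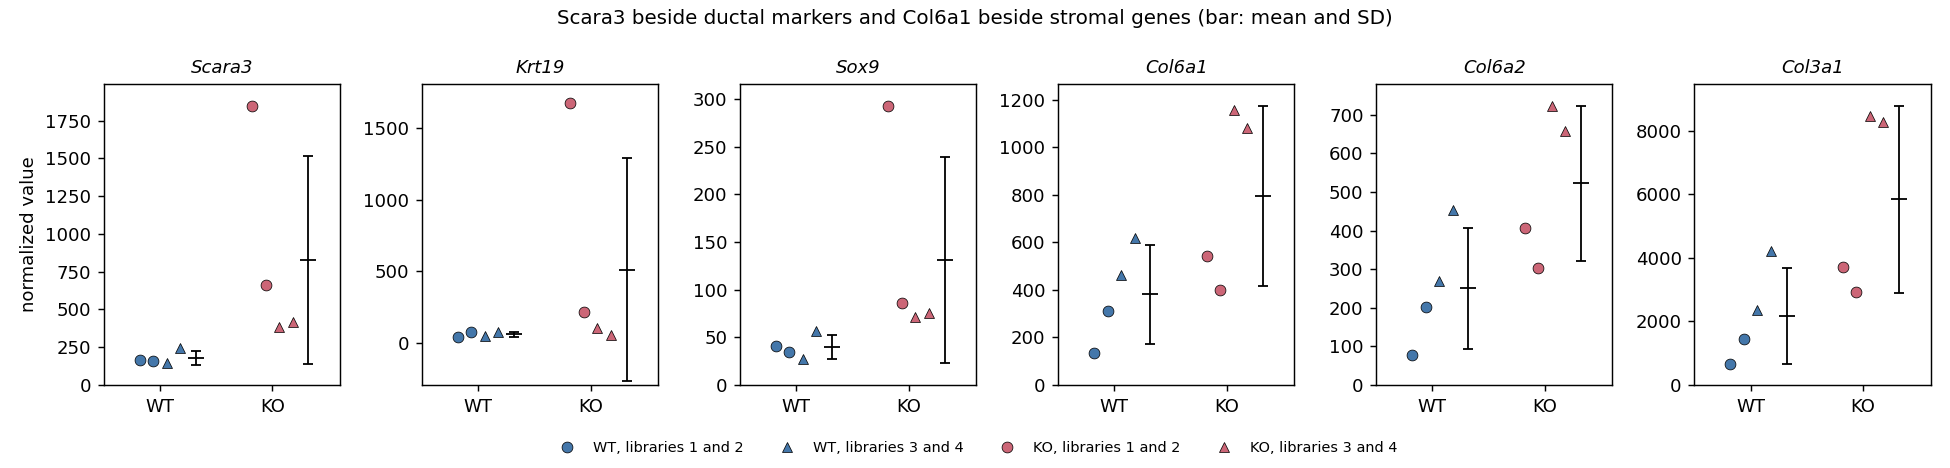
Normalized value (y axis, linear) of Scara3 beside the duct cell markers Krt19 and Sox9, and of Col6a1 beside Col6a2 and the stromal collagen Col3a1, in each library, with mean and SD of 4 libraries. KO1 is the highest library for Scara3, Krt19 and Sox9, while libraries 3 and 4 of KO are the highest for the 3 collagens; the SD bar of Krt19 reaches below 0 because KO1 alone is at 1673.

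Pdgfrb, Sparc, Col6a1 and Pmp22 are known mostly from stromal cells and nerve sheath rather than from endocrine cells. All 4 had positive fold changes, and none passed the test over all 8 libraries. Fitted beside the genotype label, Pdgfrb, Col6a1 and Pmp22 were higher in libraries 3 and 4, where 9.38% of all genes were.

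Pdgfrb (chr18:61045150-61085061, plus strand, ENSMUSG00000024620) is the receptor for platelet-derived growth factor B on pericytes and fibroblasts. It was at 439, 626, 614 and 879 in WT and 748, 671, 1088 and 1277 in KO. WT4 lay above 2 of the KO libraries, and the highest values were KO3 and KO4. The difference was log2 0.56 ± 0.25 (interval from -0.01 to 1.13, adjusted p = 0.152), and with the replicate block the adjusted p was 0.0249 (limma-trend). Of 5 ligands and relatives, Pdgfc rose, Pdgfb, the main ligand of this receptor, fell, and 3 did not pass. Of all genes, 11.1% were called higher and 9.81% lower. Pdgfc was at 9, 7, 13 and 21 in WT and 269, 65, 50 and 35 in KO, with KO1 again the highest (log2 2.59 ± 0.63, adjusted p = 0.0195). Pdgfb was at 210, 267, 306 and 259 in WT and 168, 176, 183 and 191 in KO (log2 -0.52 ± 0.13, limma-trend, adjusted p = 0.0242). Every KO value was lower, a separation seen in 12.3% of all genes. Pdgfd, which did not pass, was at 173, 162, 175 and 173 in WT and 684, 212, 217 and 280 in KO (limma-trend, adjusted p = 0.109). Every KO value was higher, as in 13.6% of all genes, and the authors' deposited table called Pdgfd higher (FDR 0.00838).

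Col6a1 (chr10:76708792-76726168, minus strand, ENSMUSG00000001119) encodes the α1 chain of collagen VI, a microfibril of the matrix around cells. Values were 133, 313, 462 and 619 in WT and 545, 400, 1156 and 1082 in KO. WT4 exceeded both KO1 and KO2, and like-numbered libraries differed in 1 direction, with KO higher in all 4 pairs. The difference was log2 1.13 ± 0.50 (interval from -0.01 to 2.26, adjusted p = 0.145), and with the replicate block the adjusted p was 0.0209 (limma-trend). It was much the same in each pair of libraries, at 1.19 in 1 and 2 and 1.06 in 3 and 4 (interaction, adjusted p = 0.911). The difference between libraries 3 and 4 and libraries 1 and 2 was larger still, log2 1.32 ± 0.24 (adjusted p = 0.00533). Of the 4 other collagen VI chains measured, 1 was called higher, where 11.1% of all genes were, and 3 did not pass. The 1 called was Col6a5, which rose from 29.2 ± 15.5 in WT to 163.2 ± 59.3 in KO (SD, n = 4, limma-trend adjusted p = 0.00549). Col6a2 and Col6a3 were among those that did not pass, at log2 1.23 ± 0.50 and -0.53 ± 0.20 (limma-trend, adjusted p = 0.115 and 0.0942). With the replicate block their adjusted p was 0.0278 and 0.123 (limma-trend). Both were named after their values were seen.

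Sparc (chr11:55394500-55423183, minus strand, ENSMUSG00000018593) encodes a secreted calcium-binding glycoprotein that modulates how cells hold to the matrix. It was at 4545, 5830, 4856 and 6460 in WT and 6012, 4165, 7809 and 8018 in KO. KO2 was the lowest of all 8 libraries and KO3 and KO4 the highest. The difference was log2 0.23 ± 0.21 (interval from -0.25 to 0.70, adjusted p = 0.484), at -0.04 in libraries 1 and 2 and 0.50 in libraries 3 and 4 (limma-trend, adjusted p = 0.901 and 0.0389). Of its 7 relatives, 3 rose and 1 fell, where 11.1% and 9.81% of all genes were called higher and lower. Smoc1 was at 109.5 ± 19.3 in WT and 830.2 ± 118.8 in KO, Spock3 at 184.5 ± 34.5 and 503.5 ± 36.5, and Sparcl1 at 3449.2 ± 498.8 and 6134.2 ± 1289. Spock2, a proteoglycan of the same family, fell from 20005.8 ± 667.9 to 13649.5 ± 1597.4 (SD, n = 4; limma-trend, adjusted p = 0.0039).

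Pmp22 (chr11:63128982-63159547, plus strand, ENSMUSG00000018217) encodes a tetraspan membrane protein of the myelin sheath. Its values were 209, 235, 403 and 435 in WT and 237, 245, 839 and 730 in KO. Every value in libraries 3 and 4 was above every value in 1 and 2, a separation seen in 7.91% of all genes, and libraries 1 and 2 of both labels lay between 209 and 245. The difference between labels was log2 0.51 ± 0.46 (interval from -0.53 to 1.56, adjusted p = 0.477), at 0.12 in libraries 1 and 2 and 0.90 in 3 and 4 (limma-trend, adjusted p = 0.636 and 0.00371). The interaction did not pass (adjusted p = 0.109). The difference between the library pairs, log2 1.31 ± 0.16, did (adjusted p = 0.000651). Of its 3 relatives, limma-trend called 0 for the label, 0 had an unadjusted p under 0.05, and the authors' deposited table called 0. Emp1 held 421, 460, 1497 and 1110 in WT and 465, 336, 1850 and 1322 in KO, high in libraries 3 and 4 as Pmp22 was, and Emp2 held 324 ± 46.1 and 370.8 ± 110.9 (SD, n = 4).

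Many stromal markers moved with these 4 genes, and some did not. The summed level of 14 markers of stellate cells, fibroblasts and pericytes ran from 9571 to 16072 in WT and from 17469 to 29555 in KO, with KO3 and KO4 the highest, and none of the 14 was at 0 in any library. All 14 had positive fold changes (median log2 1.19). Limma-trend called 2 higher (11.1% of all genes), or 11 with the replicate block (14.2%), and the authors' deposited table called 10 higher (16.2%). Col3a1, a fibrillar collagen, was at 673, 1439, 2358 and 4197 in WT and 3704, 2915, 8458 and 8273 in KO, and the pericyte gene Rgs5 at 6904.2 ± 1143.6 and 9498 ± 1596.4 (SD, n = 4). The contractile genes peaked in library 2 instead: Acta2 was at 107, 2001, 173 and 274 in WT and 235, 3279, 472 and 531 in KO, and Tagln followed it. Des was at 51, 1208, 152 and 169 in WT and 109, 548, 211 and 214 in KO, with a lower mean in KO in spite of its positive log2 value. With the mean stromal level as a term the fitted differences were -0.09 for Pdgfrb, -0.14 for Sparc, -0.26 for Col6a1 and -0.49 for Pmp22. None of them was called (limma-trend, adjusted p from 0.579 to 0.839), where 3.56% of all genes were called higher. That mean log2 level ran from 7.01 to 8.87 in WT and from 8.79 to 9.77 in KO. It moved largely with the label, so the fit cannot separate the level from the label. The Schwann cell markers, 6 measured, had a median of log2 0.76 with 0 called by limma-trend and 0 at an unadjusted p under 0.05 (2 in the authors' deposited table, 1 with the replicate block), and their summed level ran from 3384 to 4231 in WT and from 3127 to 4045 in KO, most of it Mbp. In the fit beside the genotype label, 4 of the 6 were called higher in libraries 3 and 4, as Pmp22 was (median of the 6, log2 1.44). Among the low ones, Sox10 was at 7, 3, 20 and 35 in WT and 9, 16, 45 and 59 in KO, and Gfap was at 0 in WT2. The summed endothelial markers were at 13984, 14401, 20161 and 22438 in KO libraries 1 to 4, highest in KO3 and KO4 as Sparc was. In WT that sum ran from 13266 to 16316. The part of stromal, Schwann or endothelial cell RNA in these results was not tested further.

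Txnip (chr3:96557957-96561883, plus strand, ENSMUSG00000038393) encodes thioredoxin-interacting protein, an arrestin-like inhibitor of thioredoxin that glucose induces in beta cells. Earlier work tied it to IRE1α by way of a microRNA: IRE1α degrades miR-17, which represses Txnip. By that route Txnip mRNA is not itself decayed by IRE1α, and a loss of IRE1α would lower it rather than raise it. The mature sequence, with its seed (bases 2 to 8) in capitals, and the 2 matches to that seed in the Txnip 3′ UTR, also in capitals, are shown for that reason (RefSeq, GRCm38.p6, and GENCODE M21, GRCm38).
miR-17-5p: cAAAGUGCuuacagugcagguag
Txnip 3′ UTR, match 1: gatgttcttaGCACTTTagcttgtc
Txnip 3′ UTR, match 2: ctaagccttaGCACTTTgtcctgtg
The matches lie at chr3:96561231-96561255 and chr3:96561649-96561673. A match to GCACTTT was present in 13.9% of 2080 3′ UTRs of similar length. The hairpin letters searched were not found in the Txnip transcript used. The mature microRNA was not measured here.

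Txnip is also the standard read-out of the glucose-sensing factors ChREBP (Mlxipl) and MondoA (Mlxip), which bind paired E boxes as dimers with MLX. Its promoter held such a pair in the RefSeq window from 250 bases before to 50 after the start, 85 bases upstream at chr3:96557866-96557895, with the boxes in capitals.
Txnip promoter: actgtgCACGAGggctgCACGAGcctccag
The motif searched, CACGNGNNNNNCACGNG on both strands, was found in 0.05% of 32851 windows. It was not found in the window of Arrdc4.

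Txnip was at 7575, 6521, 26023 and 29133 in WT and 35301, 31259, 28643 and 39640 in KO. WT libraries 1 and 2 were far below the other 6, and WT4 lay just above KO3. The overall difference was log2 1.27 ± 0.48, with an interval from 0.19 to 2.34, and did not pass (adjusted p = 0.0923). Within libraries 1 and 2 KO was 4.72 times WT by means, a difference of log2 2.24 ± 0.12 (limma-trend, adjusted p = 0.000811), where 12.3% of all genes were called higher. Within libraries 3 and 4 the ratio was 1.24 and the difference 0.29 ± 0.17 (adjusted p = 0.241). The interaction was log2 -1.95 ± 0.22 (limma-trend, adjusted p = 0.0182). Txnip was 1 of 14 genes among 14121, or 0.0991%, whose interaction passed the adjusted threshold. At an unadjusted p under 0.05 the interaction of 2652 of the 14121 genes passed. Without WT4 Txnip was called higher at 1.62 (adjusted p = 0.0317). The summed immediate early genes, high in libraries 3 and 4, ran from 9942 to 16828 in WT libraries 1 and 2 and from 336349 to 369058 in WT libraries 3 and 4. In KO they were at 25948 and 20586 in libraries 1 and 2 and at 185270 and 187444 in 3 and 4, while Txnip was already at 35301 and 31259 in KO libraries 1 and 2. Their part in the Txnip result was not tested.

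Arrdc4, the α-arrestin most like Txnip and a target of the same factors, rose in the libraries labelled KO. It was at 434, 424, 490 and 427 in WT and 1864, 1634, 1387 and 1369 in KO. Every KO value was above every WT value, a separation seen in 13.6% of all genes, and the 4 WT values were tight. The difference was log2 1.81 ± 0.11 (limma-trend, adjusted p = 6.91e-05). Its interaction with the library pairs did not pass (limma-trend, adjusted p = 0.195). Of the 11 genes listed around Txnip, 1 rose, 3 fell and 7 did not pass, where 11.1% and 9.81% of all genes were called higher and lower. The 3 that fell were Mlxipl, at 5449 ± 1288.9 in WT and 3226.5 ± 760.9 in KO, Mlxip, at 2000.5 ± 160.8 and 1623.2 ± 157.3, and the mitochondrial thioredoxin reductase Txnrd2, at 211 ± 26.6 and 139.5 ± 29.9 (SD, n = 4). The mRNA of both glucose-sensing factors, Mlxipl and Mlxip, was lower while that of Arrdc4 was higher. The activity of these factors was not measured, and their part in the Txnip and Arrdc4 results was not tested. An antisense gene, Gm15441, lies over Txnip (chr3:96555765-96566801, minus strand) and was at 29, 35, 26 and 31 in WT and 53, 95, 58 and 78 in KO. It rose (log2 1.17 ± 0.26, adjusted p = 0.0129), and since the strandedness of the libraries is not given in the sources used here, reads in the overlap could belong to either gene. The values of Gm15441 were at most 95, against 6521 or more for Txnip. How reads in the overlap were assigned is not given, and their part in either result was not tested.

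**Figure D3:**
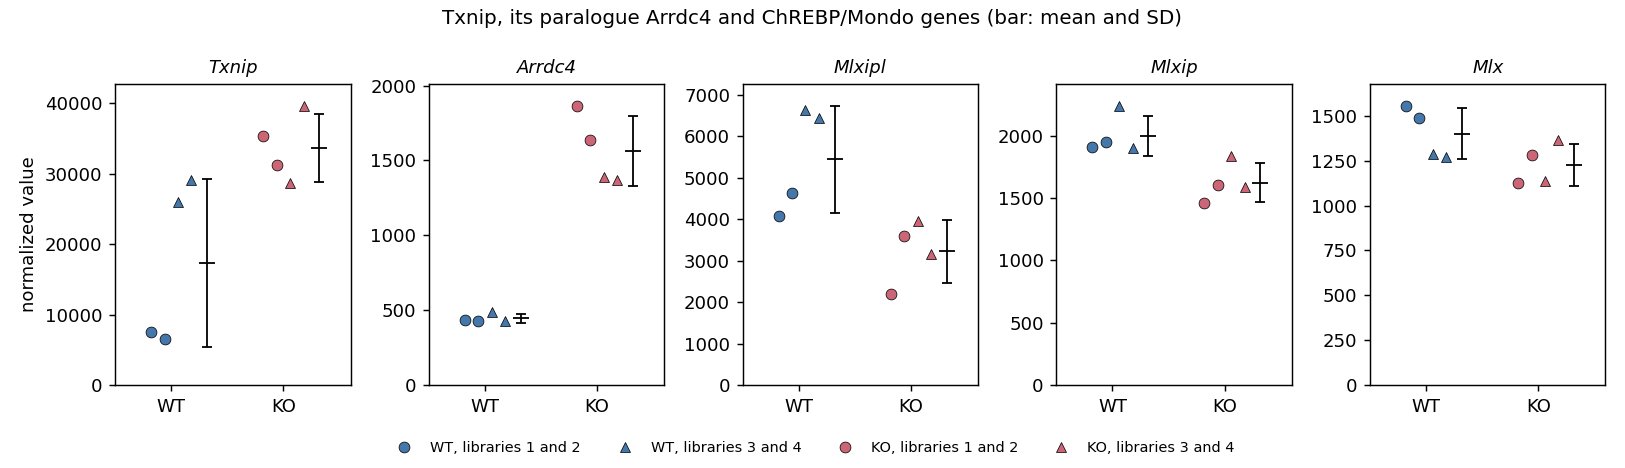
Normalized value (y axis, linear, from 0) of Txnip, Arrdc4, Mlxipl, Mlxip and Mlx in each library, with the mean and SD of 4 libraries. Txnip is low only in WT libraries 1 and 2, at 7575 and 6521, whereas Arrdc4 is between 424 and 490 in all 4 WT libraries.

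**Figure D4:**
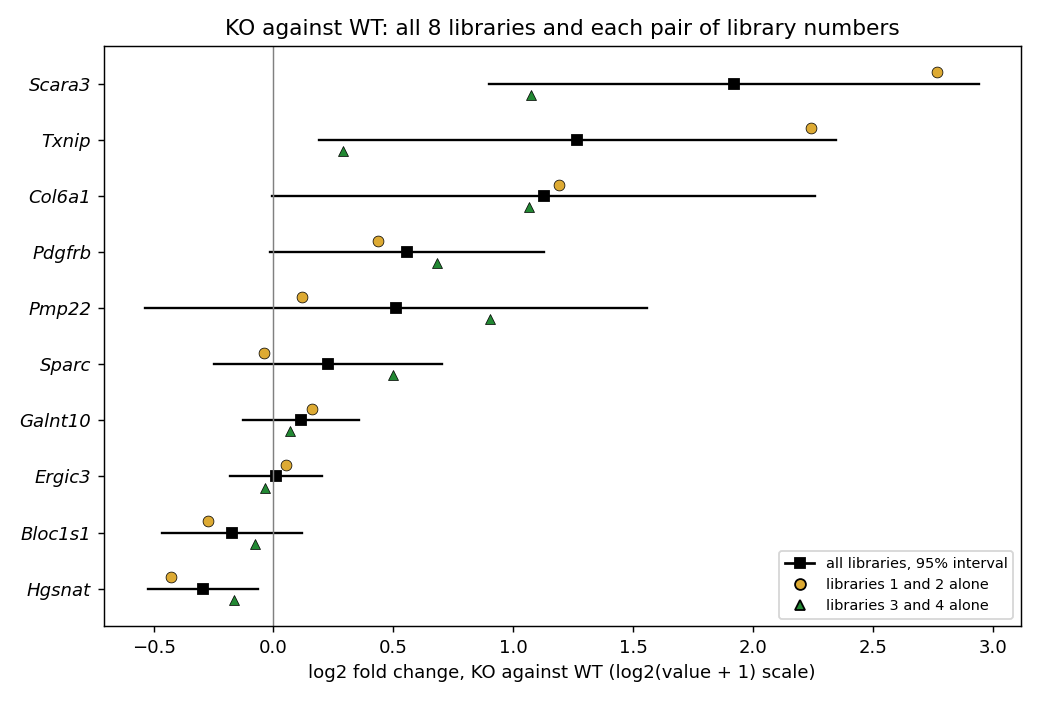
Log2 fold change of KO against WT (x axis) for each of the 10 genes, squares and lines for all 8 libraries with the 95% interval, circles for libraries 1 and 2 alone and triangles for 3 and 4 alone. Scara3 and Txnip are farther right in libraries 1 and 2, at 2.76 and 2.24, and Pmp22 and Sparc in libraries 3 and 4, at 0.90 and 0.50.

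Levels were also set beside each other per kilobase of exon, as the mean normalized value of the WT libraries. Txnip was the highest at 5543.7 units per kb, followed by Sparc at 1431.6 and Ergic3 at 968.6. Hgsnat was at 275.5, Bloc1s1 at 164.6, Galnt10 at 158.3, Pmp22 at 136.2, Pdgfrb at 116.7 and Col6a1 at 87.2. Scara3 was the lowest at 49.8 and reached 230 in KO. Neighbours from Bloc1s1 to Col6a1 did not differ beyond their spread, since the SD of Pmp22, Pdgfrb and Col6a1 was 35.9%, 28.3% and 54.4% of the mean. The tightest was Bloc1s1, with an SD of 1.39% of the mean in WT and 13.7% in KO.

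Across the 8 libraries the stromal members followed each other, as a description in which the points share libraries, labels and the split by number. Pearson's r of log2 values was 0.96 between Col6a1 and Pdgfrb, 0.87 between Sparc and Pdgfrb and 0.86 between Pmp22 and Col6a1. Bloc1s1 ran opposite to Scara3 with r of -0.88 and to Galnt10 with r of -0.86, and all 3 have their extreme value in KO1. The genes most like each member, among 11257 with a mean of at least 100, were of different kinds. Col6a1 was closest to Dkk3, Col1a2 and Col5a2 (r from 0.989 to 0.99), Pdgfrb to Ppp1r12a, Fzd4 and Postn (0.975 to 0.982), Sparc to Nid1, Rai14 and Pcdh18 (0.93 to 0.949), and Pmp22 to Cilp and Adcyap1r1 (0.988 to 0.994). Scara3 was closest to Shank2, Slc25a24 and Tmem45a (0.99 to 0.996), Txnip to Gatad2b, Arf6 and Nfatc1 (0.969 to 0.975), and Bloc1s1 to Tmem192, Slc46a3 and Syt2 (0.965 to 0.97).

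Other mRNAs named in earlier reports as IRE1 substrates were counted in the same way. Of 14 listed, 11 were measured, with a median of log2 -0.10. Limma-trend called 0 higher and 3 lower, where 11.1% and 9.81% of all genes were called. At an unadjusted p under 0.05 limma-trend gave 2 as higher (18.3% of all genes), and with the replicate block it called 2 higher (14.2%). The authors' deposited table called 3 higher (16.2%). Tapbp, a chaperone of antigen presentation, was at 4406, 4463, 5548 and 4716 in WT and 3960, 3837, 3554 and 3450 in KO (log2 -0.37 ± 0.09, adjusted p = 0.0221). The insulin genes Ins1 and Ins2 fell by 1.202 and 0.977 on the log2 scale (limma-trend, adjusted p = 0.00794 and 0.0309), though with the replicate block Ins2 did not pass (adjusted p = 0.104). They are near-identical, so reads could be split between them, and the beta cell markers fell with them. Bcam, an adhesion receptor, was at 300, 454, 478 and 524 in WT and 1593, 846, 542 and 501 in KO, highest in KO1 as Scara3 and the duct markers were (adjusted p = 0.117); it was named after its values were seen.

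XBP1 target genes, the read-out of the splicing output of IRE1α, were mostly lower in the libraries labelled KO. Xbp1 itself was at 10805, 10026, 12356 and 10795 in WT and 7104, 7858, 10170 and 10957 in KO (log2 -0.30 ± 0.14, adjusted p = 0.168), a value that does not separate spliced from unspliced mRNA. Of 20 XBP1 target genes, 13 fell, 1 rose and 6 did not pass, with a median of log2 -0.44, where 9.81% of all genes were called lower. The beta cell markers were lower beside them, 5 of 8 called with a median of log2 -0.70, and their part in this count was not tested. Wfs1, an ER membrane protein, was at 3635, 3774, 4124 and 4935 in WT and 1954, 2568, 1996 and 1984 in KO (log2 -0.95 ± 0.12, adjusted p = 0.00116). Spcs3, a subunit of the signal peptidase, fell by 0.92, Derl2, an ER-associated degradation factor, by 0.76 and the translocon subunit Sec61b by 0.75 on the log2 scale (limma-trend, adjusted p from 0.00259 to 0.0047). The 1 target that rose was Sel1l, an adaptor of ER-associated degradation (log2 0.63 ± 0.11, adjusted p = 0.00357).

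**Figure D5:**
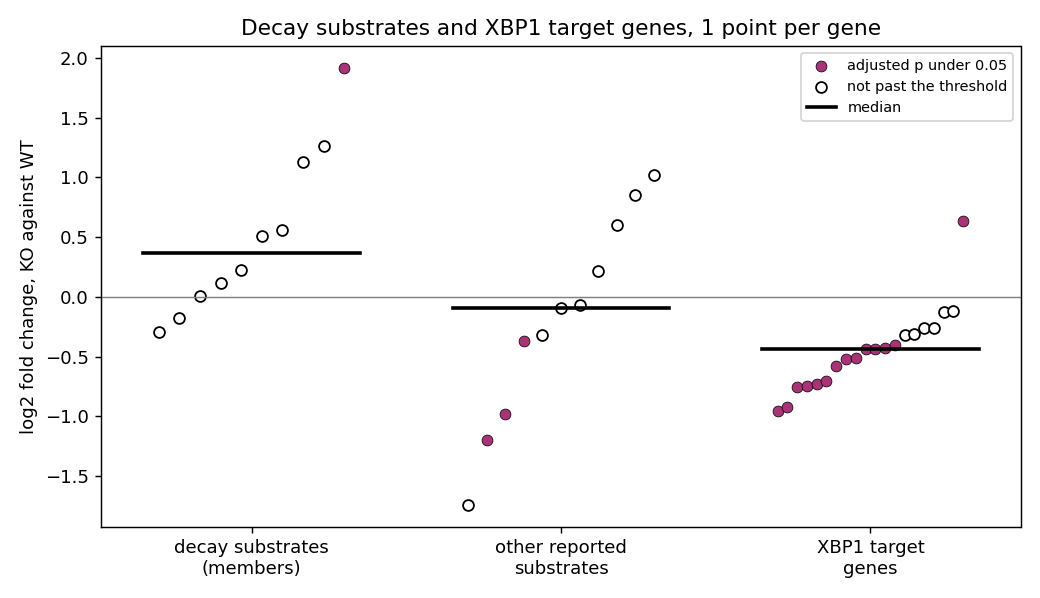
Log2 fold change of KO against WT (y axis) for every measured gene of 3 lists, sorted within each, with filled points past the adjusted p threshold of 0.05 and a bar at the median. The medians are 0.37 for the 10 substrates, -0.10 for the 11 other reported substrates and -0.44 for the 20 XBP1 targets.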

How the data were processed

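Bulk RNA sequencing of islets of 8 mice, 4 labelled WT and 4 labelled KO, was analysed from the authors' deposited table. The submitters' processing notes name STAR 2.5.3a, edgeR 3.16.15, RSEM 1.2.31, bcl2fastq 2.20 and build GRCm38.p5. The per-library values deposited by the authors are normalized counts rounded to whole numbers, treated as a score and not as raw counts. The same table, deposited by the authors, holds their log2 fold change and log2 CPM, a likelihood ratio (a score), a p-value and an FDR for each gene. No count test was run.

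The test was limma-trend (limma 3.58.1, R 4.3.3) on log2(value + 1), which understates the change of low genes, for genes at 1 or more in at least 4 libraries (14121 of 14126). P-values were Benjamini-Hochberg adjusted over all of them, with a threshold of 0.05, and the script was tested on simulated data. All 10 genes and all lists were chosen with earlier results of these data known, so a list is described by its counts and median and supports nothing by itself. Named are the 10 genes, Ern1, Xbp1, up to 4 called genes per pathway list by size of change or else the 2 most abundant, and the 2 most abundant of each marker list that bears on a result. Sel1l, Krt19, Sox9, Cftr, Sox10, Gfap, Mbp, Acta2, Tagln, Des, Mlx, Pdgfd and the genes overlapping a member were named after their values were seen. Some genes that this rule names are not reported here.

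Both groups carry replicate numbers 1 to 4. Deviations from the group mean of like-numbered libraries correlated across 13081 genes with r from 0.327 to 0.664, each above 0.1, which was taken as pairing, and a replicate block was fitted as an alternative. Genes are not independent replicates, and KO1 correlated best with WT2 (0.433) and KO4 with WT3 (0.466), not with their own numbers. Unlike-numbered libraries on the same side of the split also passed 0.1, with r from 0.433 to 0.516. The criterion therefore cannot tell pairs from the split of libraries 1 and 2 from 3 and 4. The split of libraries 1 and 2 from 3 and 4 was fitted as a term and in each pair of numbers alone. Alternatives were the pseudocount, the filter, the scaling, these terms, marker levels as a term, and leaving out each library. Coordinates and transcripts are from GENCODE M21 (GRCm38), in which 14114 gene IDs matched, and promoters and the microRNA from RefSeq (GRCm38.p6). Strandedness is not given in the sources used here. P-values measure the spread between these libraries, 1 per mouse as the design text gives it.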

Additional observations from a re-analysis of the deposited data

Results flagged for a closer look

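Bloc1s1 in KO library 1 stood far from the other 3 KO libraries, at 151 against 199, 208 and 199. Ergic3 in WT library 2 stood far from the other 3 WT libraries, at 2275 against 1987, 1991 and 1965. Both passed Dixon's criterion for 4 samples, with ratios of gap to range of 0.842 and 0.916, above the 95% critical value. Chance alone passes about 1 in 20 groups, and 20 groups were looked at. The KO against WT difference of Txnip was smaller in libraries 3 and 4 than in libraries 1 and 2 by 1.95 on the log2 scale (interaction log2 -1.95, limma-trend, adjusted p = 0.0182).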

How the results depend on the processing

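Over 21 alternatives for each of the 10 genes, 175 of 210 values kept their direction and side of the threshold, 19 came to pass it, 2 no longer passed and 14 changed sign. The 10 substrates gave 3 calls higher with the replicate block (14.2% of all genes) and 5 with the split of libraries as a term (17%). With the stromal (3.56%) or the ductal level (1.23%) as a term they gave 0. Libraries 1 and 2 alone gave 2 (12.3%) and libraries 3 and 4 alone gave 5 (11.3%). The authors' deposited table gave 5 (16.2%), and leaving out a library gave from 1 to 2. Calls lower were 1 with the split as a term (14.9% of all genes) and 1 in libraries 1 and 2 alone (10.9%), in each case Hgsnat. On leaving out a library they were from 0 to 1. WT4 is the library whose loss adds Txnip and Hgsnat. The replicate block added Pdgfrb and Col6a1 and changed no other call among the 10. Scara3 no longer passed with the stromal (log2 2.42) or ductal (0.29) level as a term. Signs turned with the stromal level as a term for Pdgfrb (-0.088), Sparc (-0.14), Col6a1 (-0.26) and Pmp22 (-0.49), with the ductal level for Bloc1s1 (0.14), Galnt10 (-0.16) and Ergic3 (-0.058), in libraries 1 and 2 alone for Sparc (-0.041), and in libraries 3 and 4 alone for Ergic3 (-0.034), which ran from -0.040 to 0.059 on leaving out a library. The cause was not tested.

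All genes gave 1562 calls higher and 1385 lower, 2400 and 2102 with the split as a term, 503 and 424 with the stromal level, 174 and 115 with the ductal level, and 1121 to 1684 and 863 to 1599 on leaving out a library (863 without WT2, 909 without KO4). With totals that leave out hormone and mitochondrial genes the split was 1745 higher and 1017 lower. Depth is unknown in 4 libraries, so precision rests on the spread of 4 libraries per group.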

Other observations

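Markers of other islet cell types were also counted for KO against WT (limma-trend, adjusted p under 0.05). Of 8 endothelial markers 0 were called, 1 was higher at an unadjusted p under 0.05, 1 with the replicate block and 1 in the authors' deposited table. Of 8 macrophage markers 0 were called, 1 was higher at an unadjusted p under 0.05, and 0 in the authors' deposited table. Of 4 lymphocyte markers measured, 1 was lower, where 9.81% of all genes were. Of 6 acinar markers measured 0 were called, 4 were higher at an unadjusted p under 0.05, 6 in the authors' deposited table and 1 with the replicate block, with summed levels from 15536 to 215271 in WT and from 112434 to 337947 in KO. Galnt10 was closest over the 8 libraries to Kalrn, Slc25a13 and Plxnb1 (Pearson's r from 0.956 to 0.992), Hgsnat to Rab19, Atp8a1 and Cox5a (0.98 to 0.989), and Ergic3 to Ssh1, Wrap53 and Tmem9 (0.944 to 0.973).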
